A study of Mus musculus with 8 samples.

Results

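The 8 *Hox* genes listed in a table of 875 genes were followed across 4 groups of mouse embryonic fibroblasts (MEFs), which are connective tissue cells cultured from an embryo. Members were taken by symbol, as every listed gene named *Hoxa*, *Hoxb*, *Hoxc* or *Hoxd* with a number. RNA was sequenced after depletion of ribosomal RNA in 8 libraries, 2 for each group. The control cells were the parental line, in which loxP sites flank part of the *EED* gene, and the labels name no vector for them. EZHIP cells were the same MEFs after a lentivirus for stable expression of human *EZHIP*, and K27M cells after a lentivirus for the H3.3 K27M mutant histone. EED-null cells were a single clone in which a hit-and-run lentivirus for Cre recombinase had removed *EED*. RNA of FFT cells had been added to each sample. The labels do not say whether the 2 libraries of a group came from separate cultures, so the p-values measure the spread between these libraries, which may be technical.

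*Hox* genes encode homeodomain transcription factors that give cells their position along the body axis. They lie in 4 clusters, and the number in a symbol is the paralogue group, which follows the order of the genes in a cluster. Low numbers act toward the head and high numbers toward the tail and the ends of the limbs, and cultured fibroblasts keep a *Hox* pattern that reflects the site they came from. Polycomb repressive complex 2 (PRC2) methylates lysine 27 of histone H3, and inactive *Hox* genes are among its classic targets. EED is a core subunit of PRC2, whereas EZHIP and H3.3 K27M are inhibitors of its catalytic activity.

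The deposited values are normalized expression, which is the estimated reads of a gene divided by 1 size factor for each library. The table was restricted by the authors to genes that differed 2-fold or more when EZHIP and control cells were compared, so a *Hox* gene missing from it was not measured here. The comparison of EZHIP with control is therefore given as a description. K27M and EED-null cells were compared with the same control libraries that selected the table. The log2 difference between K27M and EED-null cells used neither of the groups behind the selection. Its SE and p-value used both, because the spread was pooled over all groups. *Eed* was not listed, so its deletion was not checked. Depth, counted as reads on the 875 genes, ran from 209390 to 424561 per library, and *Hox* genes held 372 and 554 of them in the control libraries against 1604 and 2363 in the EED-null libraries.

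Each of the 4 clusters contributed 2 listed genes. In the annotation of mm9, the genome build of the data, 39 *Hox* genes are named. Of 16 genes in paralogue groups 9 to 13, called posterior here, 6 were listed (37.5%). Of 23 in groups 1 to 8, called more anterior, 2 were listed (8.70%). Being listed is itself the selection on EZHIP against control, and the share of all annotated genes that was listed is not given here. Nothing was therefore read from the difference between these shares. The more anterior genes were *Hoxa5* (ENSMUSG00000038253.6, minus strand of chromosome 6, 52151753 to 52154586) and *Hoxc8* (ENSMUSG00000001657.6, plus strand of chromosome 15, 102821053 to 102824698). The posterior genes were *Hoxa11* (ENSMUSG00000038210.9, minus strand of chromosome 6, 52192107 to 52196213), *Hoxb9* (ENSMUSG00000020875.8, plus strand of chromosome 11, 96132771 to 96137909) and *Hoxb13* (ENSMUSG00000049604.3, plus strand of chromosome 11, 96055630 to 96058761), together with *Hoxc13* (ENSMUSG00000001655.6, plus strand of chromosome 15, 102751534 to 102759245), *Hoxd10* (ENSMUSG00000050368.3, plus strand of chromosome 2, 74529147 to 74533163) and *Hoxd13* (ENSMUSG00000001819.4, plus strand of chromosome 2, 74506367 to 74509656). The 8 genes are annotated as protein coding, with 2 exons in the longest transcript.

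RefSeq promoter windows (GRCm38.p6) were given for 4 of the 8 genes, *Hoxa5*, *Hoxa11*, *Hoxd10* and *Hoxd13*. None was given for *Hoxb9*, *Hoxb13*, *Hoxc8* and *Hoxc13*, so no statement over the whole group was made. A window spans 300 bases, from 250 before to 50 after the RefSeq start of the gene. That start is the annotated one for *Hoxa5*, but the windows of *Hoxa11* and *Hoxd10* lie inside the annotated gene, and the *Hoxd13* start lies before it. CpG-rich promoters are a known site of PRC2 recruitment, so the dinucleotide CG was counted, which reads the same on both strands. *Hoxd13* held 37 and *Hoxa5* 29, against a median of 7 in 32851 promoters, of which 5.58% and 12.9% had as many. *Hoxd10* held 22 and *Hoxa11* 15, counts reached by 23.1% and 34.6% of the promoters. The 250 bases before the RefSeq start are shown for a gene that was lower than control in the other groups, *Hoxa5*, and for one that was absent from the control libraries and higher elsewhere, *Hoxd13*, each on the strand of its gene and with every CG in capitals. The same letters were found once in mm9, at chr6:52154587-52154836 on the minus strand for *Hoxa5* and at chr2:74506032-74506281 on the plus strand for *Hoxd13*. No exon is annotated in either stretch, but introns of *Hoxa3* and of the antisense RNA *2700086A05Rik* span that of *Hoxa5*.
Hoxa5: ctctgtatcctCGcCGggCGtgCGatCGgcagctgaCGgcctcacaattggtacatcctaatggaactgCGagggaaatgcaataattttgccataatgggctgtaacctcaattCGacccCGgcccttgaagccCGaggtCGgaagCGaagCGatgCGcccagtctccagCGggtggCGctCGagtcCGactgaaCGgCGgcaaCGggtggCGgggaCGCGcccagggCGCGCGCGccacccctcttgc
Hoxd13: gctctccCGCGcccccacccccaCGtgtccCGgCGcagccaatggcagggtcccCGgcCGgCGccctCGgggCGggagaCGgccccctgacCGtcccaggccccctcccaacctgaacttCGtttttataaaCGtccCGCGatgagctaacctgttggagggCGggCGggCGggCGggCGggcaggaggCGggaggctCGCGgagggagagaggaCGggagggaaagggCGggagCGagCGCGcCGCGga

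Cells of the control line expressed *Hoxa5*, *Hoxb9* and *Hoxc8*, whereas the other 5 genes were near or at 0. *Hoxd13*, which patterns the digits and the genital tubercle, had normalized expression of 0 in both control libraries, 105 and 88.9 in EZHIP cells, 126 and 149 in K27M cells, and 658 in both EED-null libraries. *Hoxd10*, which acts in the limb and in spinal motor neurons, was likewise at 0 in both control libraries, reaching 21.3 and 25.1 with EZHIP, 66.8 and 70.8 with K27M and 152 and 155 without EED. The groups did not overlap for either gene and stood in the order control, EZHIP, K27M, EED-null. For *Hoxb13*, a gene of the tail bud and later the prostate, the control libraries held 1.03 and 1.48, against 82.8 and 101 with EZHIP, 213 and 219 with K27M, and 539 and 534 without EED. *Hoxc13*, which is needed for hair and nails, stood at 5.13 and 1.48 in the control libraries, 123 and 113 with EZHIP, 140.1 and 144 with K27M, and 289.8 and 304 without EED. *Hoxa11*, a gene of the forearm, lower leg and uterus, stood at 2.05 and 2.95 in the control libraries, 39.1 and 53.6 with EZHIP, 55.6 and 60.3 with K27M, and 65.2 and 74.6 without EED. These 3 genes had the same order of groups as *Hoxd13*, again without overlap. The share of all listed genes with this order or without overlap was not counted. A gap between control and EZHIP was also selected for, so nothing was read from either trait.

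*Hoxb9*, the posterior gene with the lowest group number and a regulator of the thoracic skeleton, differed from the other posterior genes in being expressed in control cells. Its control libraries held 132 and 142, those with EZHIP 335 and 363, those with K27M 234 and 207, and those without EED 396 and 432. The groups did not overlap, but K27M stood below EZHIP. *Hoxa5*, which acts in the lower neck and in the lung, had 198 in both control libraries, 91.1 and 87.8 with EZHIP, 69.6 and 89.2 with K27M, and 98.4 and 108 without EED. Control was the highest group, EED-null came next, and EZHIP and K27M overlapped. *Hoxc8*, a gene of the thorax, stood at 43.1 and 62.7 in the control libraries, 16.6 and 6.84 with EZHIP, 20.4 and 25.4 with K27M, and 23.6 and 24.2 without EED. Again control was highest, EZHIP was lowest, and K27M and EED-null overlapped.

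**Figure D1:**
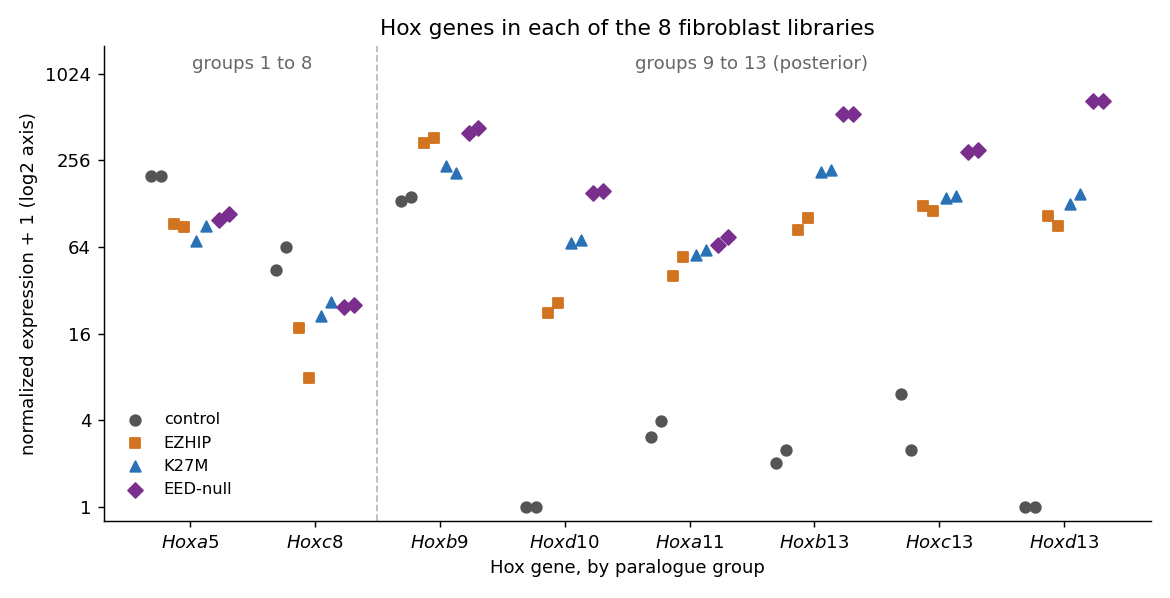
Normalized expression plus 1 (log2 axis) of the 8 listed *Hox* genes in each library, with genes ordered by paralogue group and 2 points for each group of cells. *Hoxd10* and *Hoxd13* are at 0 in both control libraries, and EED-null cells are highest for each of the 6 posterior genes.

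In a bulk sample, expression in more cells and more RNA per cell cannot be told apart, so these levels do not say what share of cells expressed a gene. The reads behind them set their precision. In the 2 control libraries together, *Hoxb13* held 3 reads, *Hoxa11* 6 and *Hoxc13* 7, whereas *Hoxa5* held 462 and *Hoxb9* 321. Each read was worth between 0.738 and 1.39 of normalized expression. Several genes also overlap others in the annotation. *Hoxa11as* lies antisense to *Hoxa11*, the span of *Hoxa3* and *2700086A05Rik* covers *Hoxa5*, *Gm20398* overlaps *Hoxc8* and *Gm20440* overlaps *Hoxd10*. *Hoxa3*, *Gm20398* and *Gm20440* lie on the same strand as the *Hox* gene they overlap, and for the antisense genes the sources do not state that strand was used in counting. *Hoxb9*, *Hoxb13*, *Hoxc13* and *Hoxd13* overlap no other annotated gene.

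In EZHIP cells, the 6 posterior genes were higher and the 2 more anterior genes lower than in control cells. Fold differences for the genes near 0 are given with a 95% interval for counting error, or, where control was at 0, as a lower bound against a floor of 3 reads per library. Intervals and floors cover counting error only. *Hoxb13* was 73.6-fold higher (24.1 to 351), *Hoxc13* 35.7-fold (18.7 to 98.8) and *Hoxa11* 18.5-fold (7.93 to 50.6). *Hoxd13* was at least 36.7-fold and *Hoxd10* at least 8.76-fold higher. *Hoxb9* was 2.54-fold higher (2.21 to 2.91), while *Hoxa5* stood at 0.451 of control (0.373 to 0.542) and *Hoxc8* at 0.221 (0.126 to 0.343). Differences were also fitted with limma on log2(value + 1), a scale that understates the change of low genes, and a gene was called at an adjusted p under 0.05 and at least 2-fold. An exact permutation test of 2 libraries against 2 cannot go below a p of 0.333, so limma, which pools the spread over genes and groups, was the test used. All 8 genes were called, 6 higher and 2 lower, as were 490 of the 875 listed genes higher (56.0%) and 377 lower (43.1%). Since the table was selected on this comparison, nothing was read from the count. The log2 difference of *Hoxc13*, 4.93 with all libraries, was 5.58 without control replicate 1 and 4.28 without control replicate 2. That of *Hoxc8*, -2.18 with all libraries, was -2.76 without EZHIP replicate 1 and -1.59 without EZHIP replicate 2.

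In K27M cells, the 6 posterior genes had higher means than in control, 5 of them called higher, and both more anterior genes were called lower. *Hoxb13* was 173-fold higher (57.2 to 818), with a log2 difference of 6.60 (SE 0.15, adjusted p = 7.53e-07). *Hoxd13* was at least 51.9-fold higher and *Hoxd10* at least 26.0-fold. *Hoxc13* was 43.0-fold higher (22.7 to 119) and *Hoxa11* 23.2-fold (10.1 to 62.5). The log2 difference of *Hoxc13*, 5.20 with all libraries, was 5.85 without control replicate 1 and 4.54 without control replicate 2. Of all listed genes, 362 (41.4%) were called higher, and of the 495 genes with a higher mean in EZHIP than control, the class of the posterior *Hox* genes, 309 (62.4%) were. *Hoxb9* had a log2 difference of 0.68 (SE 0.12, adjusted p = 0.00193) and was not called because it missed the 2-fold threshold. *Hoxa5* fell by 1.32 on the log2 scale (SE 0.14, adjusted p = 2.16e-04), to 0.401 of control. *Hoxc8* fell by 1.16 (SE 0.39, adjusted p = 0.0327). In the background of these 2 genes, 175 of all listed genes (20.0%) were called lower, and 151 of the 380 with a lower mean in EZHIP (39.7%). The call on *Hoxc8* was close to the threshold. It was lost without control replicate 2 (log2 difference -0.89, adjusted p = 0.142), without K27M replicate 1 (-1.01, adjusted p = 0.137), without K27M replicate 2 (-1.31, adjusted p = 0.0729) and without EED-null replicate 1 or 2 (-1.16, adjusted p = 0.0543). A group left with 1 library was assumed to vary like the others. Over the alternatives tried its adjusted p ranged from 0.0049 to 0.142.

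EED-null cells had 6 of 6 posterior genes called higher than control and 1 of 2 more anterior genes called lower. *Hoxb13* was 429-fold higher (142 to 2022), with a log2 difference of 7.91 (SE 0.15, adjusted p = 1.77e-07). *Hoxd13* was at least 249-fold and *Hoxd10* at least 58.1-fold higher. *Hoxc13* was 89.9-fold higher (47.8 to 248), *Hoxa11* 27.9-fold (12.3 to 76.2) and *Hoxb9* 3.02-fold (2.65 to 3.46). The log2 difference of *Hoxc13*, 6.26 with all libraries, was 6.91 without control replicate 1 and 5.60 without control replicate 2. Among all listed genes, 349 (39.9%) were called higher, and among the 495 with a higher mean in EZHIP 338 (68.3%). *Hoxa5* stood at 0.520 of control (0.438 to 0.623), with a log2 difference of -0.94 (SE 0.14, adjusted p = 9.70e-04), and was not called because it missed 2-fold. Without EED-null replicate 2 it just passed 2-fold and was called (adjusted p = 0.00489), and over its alternatives the adjusted p ranged from 1.68e-04 to 0.00813. *Hoxc8* fell by 1.09 (SE 0.39, adjusted p = 0.0386). Lower calls covered 220 of all listed genes (25.1%) and 209 of the 380 with a lower mean in EZHIP (55.0%). The *Hoxc8* call was again lost without control replicate 2 (-0.83, adjusted p = 0.165), without EED-null replicate 1 (-1.07, adjusted p = 0.115), without EED-null replicate 2 (-1.11, adjusted p = 0.107) and without K27M replicate 1 or 2 (-1.09, adjusted p = 0.0622). It also missed the threshold with a pseudocount of 0.1 (adjusted p = 0.0552) and missed 2-fold with a pseudocount of 5 (log2 difference -0.98), within a range of 0.00574 to 0.165 for its adjusted p.

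**Figure D2:**
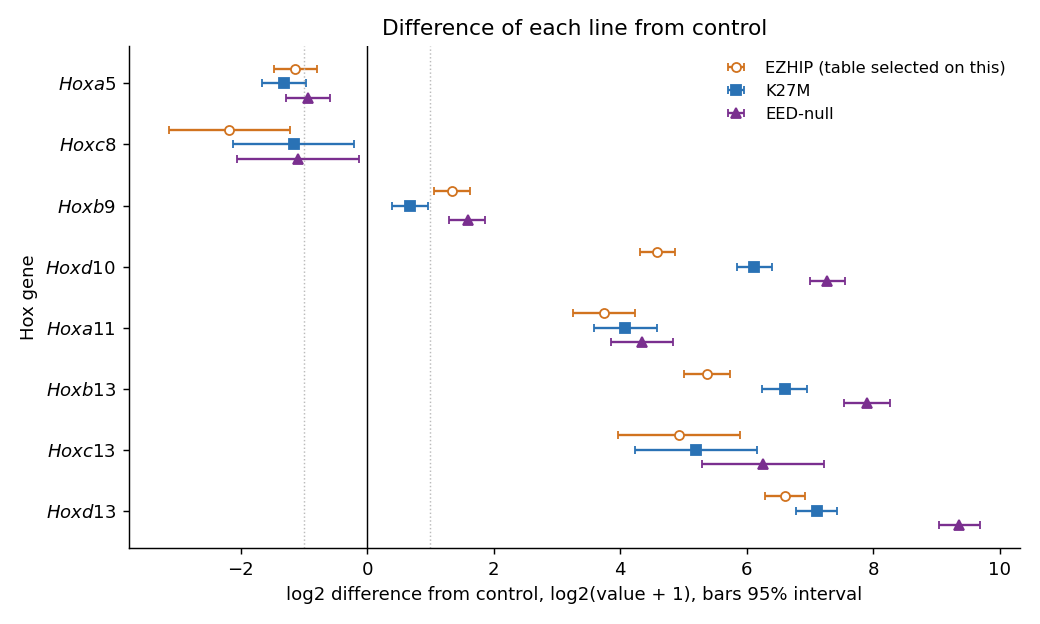
Log2 difference from control on the log2(value + 1) scale for EZHIP (open circles, the comparison that selected the table), K27M (squares) and EED-null cells (triangles), with bars for the 95% interval from limma and dotted lines at a 2-fold difference. The 6 posterior genes lie above 0, from 0.68 to 9.36, and *Hoxa5* and *Hoxc8* lie below 0 in each group of cells.

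Set side by side, the 3 comparisons with control share their control libraries and are not independent of each other. The median log2 difference of the 6 posterior genes was 4.76 with EZHIP, 5.66 with K27M and 6.77 without EED, and over the 495 listed genes with a higher mean in EZHIP it was 2.08, 1.61 and 1.93. With genes at 0 in control set to their lower bound, the medians of the posterior genes were 4.34, 4.95 and 6.06, and those of the 495 genes 2.08, 1.55 and 1.90. For the 2 more anterior genes the medians were -1.66, -1.24 and -1.01, and over the 380 listed genes with a lower mean in EZHIP they were -1.63, -0.68 and -1.14. Among the 875 genes, *Hoxb13* ranked 40 from the highest log2 difference with EZHIP, 20 with K27M and 16 without EED, and *Hoxc13* ranked 55, 49 and 41. Both genes held few control reads, so these ranks are tied to the pseudocount of 1, and genes at 0 in control have no rank that is free of it. Without EED, *Hoxb13* stood above *Hoxd10* at a pseudocount of 1 (7.91 against 7.27) but below it at 0.1 (8.65 against 10.59). *Hoxb9* ranked 393 from the highest log2 difference with EZHIP, 418 with K27M and 293 without EED. On this scale *Hoxa5* was at rank 319, 144 and 235 from the lowest.

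The size factors were made by the authors, and rescaling the libraries on the listed genes shifted their log2 differences from control. The listed genes were selected for a difference, 495 of them with a higher mean in EZHIP and 380 with a lower one. Rescaling on them therefore removes part of a shared rise by construction. The median shift over genes was -0.31 for EZHIP, -0.45 for K27M and -0.39 for EED-null cells. Among called genes, the share that was higher moved from 67.4% to 55.6% for K27M and from 61.3% to 52.5% for EED-null cells. No *Hox* gene changed direction against control in any of the 3 lines. After rescaling, *Hoxa11* was at 3.71 in K27M and 4.03 in EED-null cells. For *Hoxd13*, at 0 in control, the fitted log2 difference depended on the pseudocount, from 4.83 at 5 to 10.42 at 0.1 in K27M and from 7.05 to 12.68 in EED-null cells, and it is no bound. *Hoxb9* in K27M cells was at 0.22 (adjusted p = 0.17, within 1.67e-04 to 0.17 over its alternatives). Its difference from control there depended on the scaling, and which scaling is the better one was not tested. *Hoxa5* in EED-null cells was at -1.33 (adjusted p = 1.68e-04) and was then called.

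The lines were next compared with each other, to ask whether the *Hox* genes reached the same levels in K27M and EED-null cells. EED-null cells were a single clone. Loss of EED and the origin of that clone therefore cannot be told apart, here or in the comparison with control. In K27M cells, the 6 posterior genes had lower means than in EED-null cells and 4 of them were called lower, while 233 of all listed genes (26.6%) were called lower in this comparison. *Hoxd13* differed most, with a level in EED-null cells 4.79-fold that in K27M cells and a log2 difference of -2.26 (SE 0.13, adjusted p = 2.16e-05). For *Hoxb13* the ratio was 2.48-fold (log2 difference -1.31, SE 0.15, adjusted p = 3.53e-04), and for *Hoxd10* 2.24-fold (-1.15, SE 0.11, adjusted p = 1.82e-04). The calls on these 3 genes held under each alternative tried, with a log2 difference between -2.37 and -2.14 for *Hoxd13*. *Hoxc13* was called at -1.06 (SE 0.39, adjusted p = 0.0462), but not without EZHIP replicate 1 or 2 (-1.06, adjusted p = 0.0705), without K27M replicate 1 (-1.04, adjusted p = 0.14) or 2 (-1.08, adjusted p = 0.129), without EED-null replicate 1 (-1.09, adjusted p = 0.119) or 2 (-1.02, adjusted p = 0.139), or with a pseudocount of 0.1 (adjusted p = 0.121). With only the 2 groups compared in the fit, the call on *Hoxc13* held (-1.06, adjusted p = 0.00154). The pooled spread of the main fit includes its control libraries, which held 5.13 and 1.48.

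*Hoxb9* was also lower in K27M than in EED-null cells, at -0.91 (95% interval -1.19 to -0.62, adjusted p = 5.98e-04), but by less than 2-fold. For *Hoxa11* the difference was -0.26 (-0.76 to 0.23), for *Hoxa5* -0.38 (-0.73 to -0.04, adjusted p = 0.0462) and for *Hoxc8* -0.07 (-1.03 to 0.89), and none of them was called. A 2-fold difference lies inside the interval of *Hoxc8*, so the fit does not show that its levels were alike. That interval rests on a spread pooled over all 4 groups. The EZHIP libraries (16.6 and 6.84) lay further apart than those of K27M (20.4 and 25.4) and EED-null cells (23.6 and 24.2). limma called 0 of the 8 *Hox* genes higher in K27M cells, and 0 were higher at an unadjusted p under 0.05, while 243 of all listed genes (27.8%) were called higher. The median log2 difference was -1.10 for the 6 posterior genes, -0.22 for the 2 more anterior genes, and 0.01 for all 875 genes. It was -0.25 for the 495 listed genes with a higher mean in EZHIP and 0.45 for the 380 with a lower mean.

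Both other comparisons used the EZHIP libraries that selected the table. In K27M cells, *Hoxb13* (log2 difference 1.23, SE 0.15, adjusted p = 4.03e-04) and *Hoxd10* (1.53, SE 0.11, adjusted p = 5.15e-05) were higher than in EZHIP cells, and 285 of all listed genes (32.6%) were called higher. *Hoxd13* differed by 0.50 (0.17 to 0.82, adjusted p = 0.0132) and was not called because it missed 2-fold. *Hoxa11* differed by 0.33 (-0.16 to 0.83) and *Hoxc13* by 0.27 (-0.69 to 1.23), and neither was called. *Hoxb9* was at -0.66 (-0.95 to -0.38, adjusted p = 0.00229), less than 2-fold. limma called 0 of the 8 genes lower, against 1 at an unadjusted p under 0.05 and 229 of all listed genes called lower (26.2%). Of the more anterior genes, *Hoxa5* was at -0.18 (-0.53 to 0.16) and *Hoxc8* at 1.02 (0.06 to 1.97, adjusted p = 0.0502). Without EZHIP replicate 1, *Hoxc8* was called at 1.60 (adjusted p = 0.00369), and it was also called with a filter on a mean of at least 5 and with a trend in the fit. Over its alternatives the adjusted p ranged from 0.00369 to 0.187.

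Against EZHIP cells, EED-null cells had 4 of 6 posterior genes called higher. They were *Hoxd13* at 2.75 (SE 0.13, adjusted p = 4.30e-05), *Hoxd10* at 2.68 (SE 0.11, adjusted p = 3.79e-05), *Hoxb13* at 2.54 (SE 0.15, adjusted p = 6.02e-05) and *Hoxc13* at 1.33 (SE 0.39, adjusted p = 0.0239). *Hoxc8* was called as well, at 1.08 (SE 0.39, adjusted p = 0.0475). Among all listed genes 220 (25.1%) were called higher and 173 (19.8%) lower, while 0 *Hox* genes were called lower by limma and 0 were lower at an unadjusted p under 0.05. *Hoxa11* differed by 0.60 (0.10 to 1.09, adjusted p = 0.0378), less than 2-fold. *Hoxb9* differed by 0.25 (-0.04 to 0.53) and *Hoxa5* by 0.20 (-0.15 to 0.55). The call on *Hoxc13* was lost without EZHIP replicate 1 (1.39, adjusted p = 0.0695) or 2 (1.26, adjusted p = 0.0882), without EED-null replicate 1 (1.36, adjusted p = 0.0758) or 2 (1.29, adjusted p = 0.0865), and with a pseudocount of 0.1 (adjusted p = 0.0736), within a range from 5.25e-04 to 0.0882. With only the 2 groups compared in the fit, the call on *Hoxc13* held (1.33, adjusted p = 0.00233). The call on *Hoxc8* was lost without any of the libraries except EZHIP replicate 1. Its log2 difference was 0.50 without EZHIP replicate 2 (adjusted p = 0.156), 1.10 and 1.07 without EED-null replicate 1 and 2 (adjusted p = 0.129 and 0.136), 1.08 without K27M replicate 1 or 2 (adjusted p = 0.0752) and 1.08 without control replicate 1 or 2 (adjusted p = 0.053). The call was also lost with a pseudocount of 0.1 (adjusted p = 0.0619), with a pseudocount of 5 (log2 difference 0.85), after rescaling (adjusted p = 0.0525) and with only the 2 groups compared in the fit (adjusted p = 0.0891). Its adjusted p ranged from 0.0046 to 0.156 over the alternatives.

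**Figure D3:**
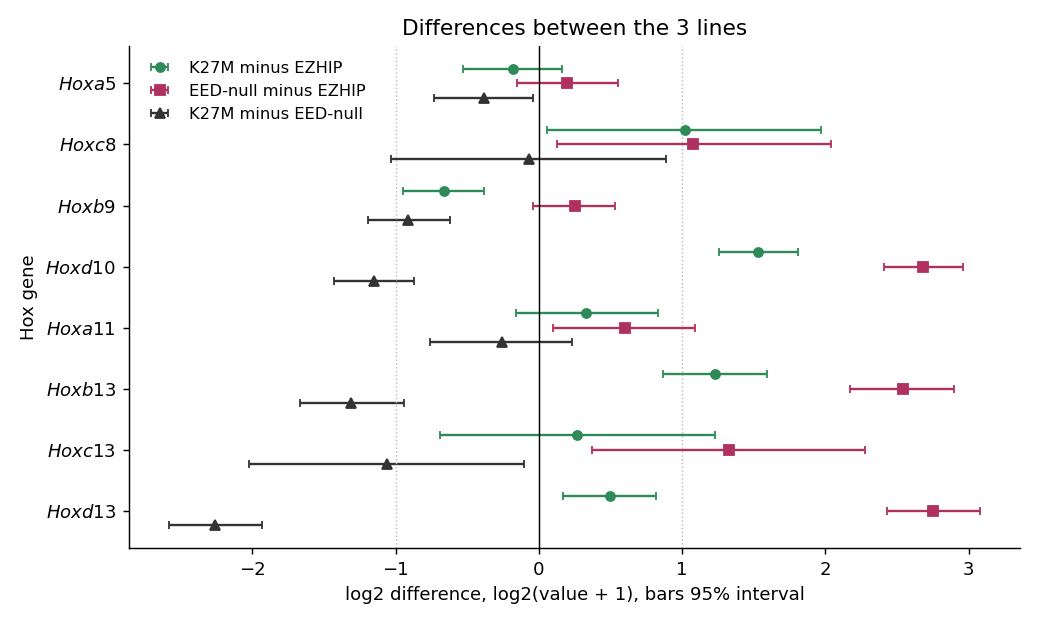
Log2 difference between pairs of lines on the log2(value + 1) scale, with bars for the 95% interval from limma and dotted lines at a 2-fold difference. *Hoxd10*, *Hoxb13* and *Hoxd13* lie below -1 for K27M minus EED-null and above 2 for EED-null minus EZHIP, whereas the intervals of *Hoxa5* lie between -1 and 1.

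Levels of different genes were compared only after division by the length of the longest annotated transcript, in kilobases. In control cells *Hoxa5* had the highest level per kilobase, 106 ± 0.0257 (SD, n = 2), followed by *Hoxb9* at 53.3 ± 2.55 and *Hoxc8* at 23.0 ± 6.04. The other 5 genes lay between 0 and 1.34. In EED-null cells the order was led by *Hoxd13* at 265 ± 0.111 and *Hoxb13* at 243 ± 1.71, then *Hoxb9* at 161 ± 9.81 and *Hoxc13* at 121 ± 4.17. *Hoxa5* came behind these and *Hoxd10*, at 54.9 ± 3.44 against 58.0 ± 0.682, a gap smaller than the larger SD. In K27M cells *Hoxb13* (98.1 ± 1.96) and *Hoxb9* (85.6 ± 7.26) were highest, but with the median transcript length *Hoxb9* was at 122 and came before *Hoxb13*. Between *Hoxc13* at 57.8 and *Hoxd13* at 55.3 ± 6.40 the gap in K27M cells was within the SD. *Hoxb9* was highest in EZHIP cells, at 135 ± 7.57, with *Hoxc13* at 47.9 ± 2.94 and *Hoxa5* at 47.7 ± 1.27 next and closer than their SD. *Hoxc8* was lowest in EZHIP, K27M and EED-null cells, at 5.09 ± 2.99, 9.95 ± 1.52 and 10.4 ± 0.203.

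**Figure D4:**
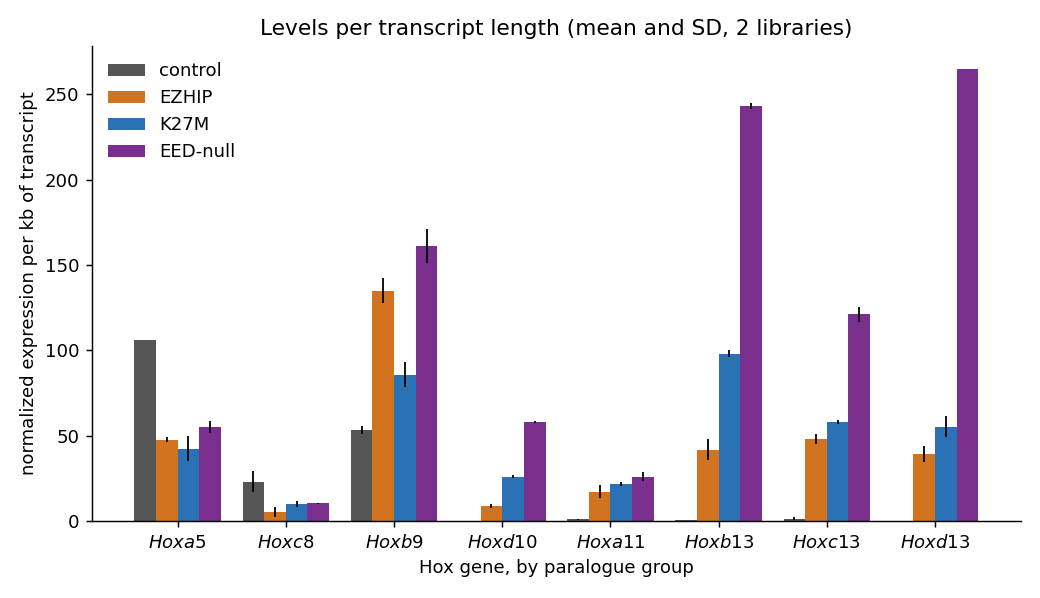
Normalized expression per kilobase of the longest annotated transcript, as the mean of 2 libraries with the SD as an error bar, for 8 *Hox* genes in 4 groups of cells. *Hoxa5* leads in control cells at 106, and *Hoxd13* and *Hoxb13* lead in EED-null cells at 265 and 243.

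By position, each listed pair consisted of genes that lie close together. *Hoxd10* and *Hoxd13* start 22.8 kb apart, with *Hoxd11* and *Hoxd12* between them, and rose together. *Hoxb9* and *Hoxb13* start 77.1 kb apart with 0 *Hox* genes between, and had the different control levels described above. In the other clusters the listed genes moved in opposite directions. *Hoxa5* and *Hoxa11* lie 41.6 kb apart, and *Hoxc8* and *Hoxc13* lie 69.5 kb apart with 4 unlisted genes, *Hoxc9* to *Hoxc12*, between them. Among the 850 listed genes with a single annotated locus, 2 others start within 1 Mb of a listed *Hox* gene, and 0 within 500 kb. *Jazf1*, a zinc finger gene 822 kb from *Hoxa11*, went from 261 ± 22.2 (SD, n = 2) in control to 102 ± 4.26 in K27M and 104 ± 18.9 in EED-null cells and was called lower in both. *Sp6*, a transcription factor gene of teeth and skin 742 kb from *Hoxb9*, went from 1.62 ± 0.840 to 15.7 ± 1.25 and 34.4 ± 3.49 and was called higher in both. Of 35 RNAs and flanking genes of the clusters, *Hotair*, *Hottip* and *Evx2* among them, 0 were listed.

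The genes most like each *Hox* gene were taken as those with the smallest root mean square difference of centred log2(value + 1) over the 8 libraries, among 863 other listed genes with a mean of at least 5. *Vax2*, a homeobox gene of the ventral eye, was closest to *Hoxb13* (root mean square difference 0.16) and to *Hoxd10* (0.26). Its means were 0 in control cells, 35.4 with EZHIP, 77.4 with K27M and 217 without EED. For *Hox* genes at or near 0 in control, such differences and their order hold at a pseudocount of 1 and may change with another. The difference between *Hoxb13* and *Hoxd10*, genes of different clusters, was 0.30 at this pseudocount. Their log2 differences between EED-null and control were 7.91 and 7.27 at a pseudocount of 1, but 8.65 and 10.59 at 0.1. *Cxcl14*, which encodes a chemokine, was next for *Hoxb13* (0.39) and closest to *Hoxd13* (0.43). It was followed by *Vax2* for *Hoxd13* (0.63), and *Isl1*, a gene of motor neurons and hindlimb, was next for *Hoxd10* (0.54). The gene closest to *Hoxd13* is tied to the pseudocount, since its own difference between EED-null and control went from 7.05 at 5 to 12.68 at 0.1. *Hoxa11* was closest to *Fam84b* (0.23) and *Jph1* (0.27), and *Hoxc13* to *Homer2* (0.44) and *Cecr2* (0.46). *Hoxb9* was closest to *Tcf7*, a transcription factor of Wnt signalling (0.11), and *Gpm6b* (0.11). Of the more anterior genes, *Hoxa5* was closest to *Agphd1* (0.09) and *Dzip1* (0.11). *Boc*, which encodes a Hedgehog co-receptor, was among the closest to *Hoxc8* (0.37).

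Genes that work with or on *Hox* genes were looked up by list, in a table that holds a selected share of all genes. Of 9 PBX and MEIS cofactors, which bind DNA together with HOX proteins, 0 were listed, and of 16 trithorax group genes and H3K27 demethylases, which oppose Polycomb, 0 were. Among 34 Polycomb group genes 3 were listed. *Phf19*, which encodes an accessory subunit of PRC2, had 293 ± 25.8 (SD, n = 2) in control cells, 118 ± 7.55 with EZHIP, 333 ± 8.19 with K27M and 217 ± 17.2 without EED, and was called in neither K27M nor EED-null cells against control. *Pcgf5*, of a variant PRC1, was called higher in K27M cells (315 ± 9.69 against 73.9 ± 11.6 in control), and *Scml2* was called lower in EED-null cells (110.3 ± 16.7 against 250.5 ± 5.81). A list of 23 regulators of *Hox* expression along the body axis and of retinoic acid held 4 listed genes, of which K27M cells had 3 called higher and 1 called lower, and EED-null cells had 2 called higher. Over all listed genes these shares were 41.4%, 20.0% and 39.9%. The 4 genes were all higher in EZHIP, a class in which 62.4% were called higher in K27M and 68.3% in EED-null cells. *Egr2*, a hindbrain regulator of *Hox* genes, rose in both, from 60.8 ± 9.02 to 201 ± 36.2 and 295 ± 35.3. *Crabp1*, which encodes a retinoic acid binding protein, had 466 ± 1.31 in control cells, was called lower with K27M (49.8 ± 6.19) and was called higher without EED (964 ± 13.2). *Aldh1a1*, encoding a retinoic acid synthesizing enzyme, reached 736 ± 20.0 in K27M cells from 5.66 ± 0.702, with 3.67 ± 3.23 in EED-null cells. The retinoic acid degrading enzyme gene *Cyp26b1* was called higher in K27M cells (33.4 ± 6.49 against 12.9 ± 3.58), with 10.2 ± 0.676 in EED-null cells.

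Homeobox genes outside the *Hox* clusters encode related transcription factors with other roles in the embryo. Of 149 such genes 18 were listed, and 13 of these held at most 3 reads in each control library, as did 3 of the 8 *Hox* genes. The share of all listed genes with so few reads was not counted, in control or in K27M cells. Nothing was therefore read from such counts. Against control, K27M cells had 12 called higher and 1 called lower, while EED-null cells had 16 called higher, beside 41.4%, 20.0% and 39.9% of all listed genes. Of the 18, 16 were higher in EZHIP, a class in which 62.4% were called higher in K27M and 68.3% in EED-null cells. In the direct comparison 13 of 18 were called lower in K27M than in EED-null cells and 1 was called higher, beside 26.6% and 27.8% of all listed genes, with a median log2 difference of -3.11 beside -1.10 for the 6 posterior *Hox* genes. *Pitx1*, a hindlimb gene, had 47.7 ± 0.717 (SD, n = 2) in K27M and 665 ± 41.6 in EED-null cells, and *En2*, of the midbrain and hindbrain, had 23.0 ± 2.87 and 467 ± 16.0. *Dmbx1*, a midbrain gene, had 4.50 ± 0.188 and 330.4 ± 28.7, and *Vax2* had 77.4 ± 0.615 and 217 ± 10.1. These 4 were named for their difference between EED-null and control cells. *Meox2* and *Esx1*, named after their values were seen, had higher means in K27M, with 41.2 and 38.1 against 3.81 and 28.7, and of these *Meox2* was called. At most 3 reads in each K27M library were held by 2 of the 18 genes, *Nkx6-1* and *Otx2*, named here after their values were seen, and by 0 of the *Hox* genes. Each of the 6 posterior *Hox* genes had between 58.0 and 220.4 in K27M cells. Whether the classes differ was not tested, since their members were few and selected on EZHIP.

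**Figure D5:**
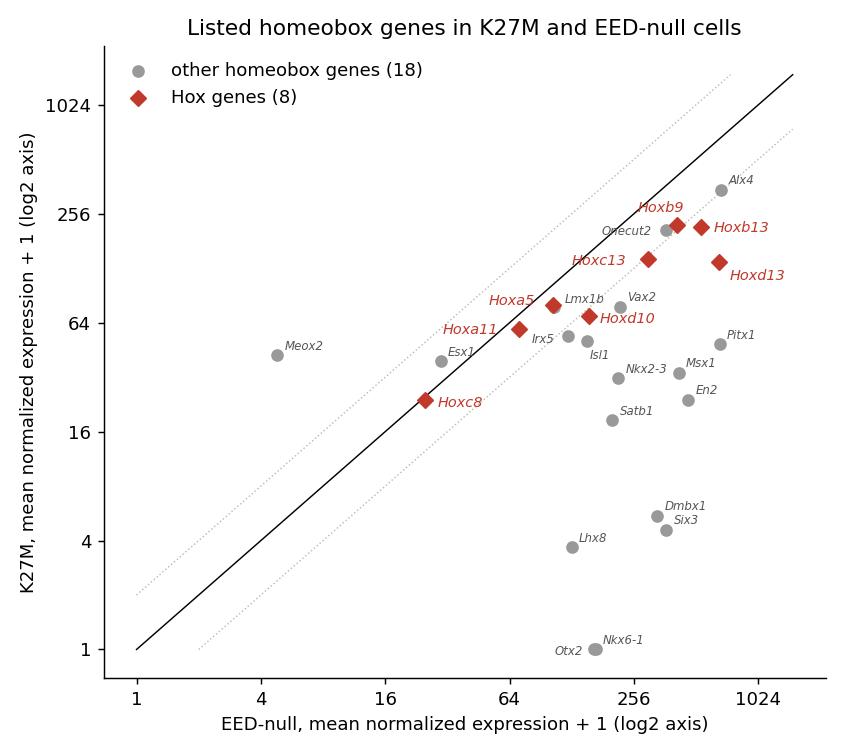
Mean normalized expression plus 1 in EED-null cells (horizontal, log2 axis) and in K27M cells (vertical, log2 axis) for 8 *Hox* genes (diamonds) and 18 other listed homeobox genes (circles), each the mean of 2 libraries, with a solid line at equality and dotted lines at a 2-fold ratio. *Otx2* and *Nkx6-1* lie at 0 in K27M cells, while the 8 *Hox* genes lie on or below the line of equality.

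Markers of cell types were looked up in the same libraries. A marker is listed only if it differed between EZHIP and control cells, so unlisted markers were not measured here and the EZHIP values are a description. Of 12 fibroblast markers 2 were listed, *Col3a1* and *Dcn*, and their summed expression was 18029.7 and 17625 in the control libraries, 6926 and 6447 with EZHIP, 5398 and 5772 with K27M, and 5802 and 5715 without EED. *Col3a1*, a fibrillar collagen gene, was the more abundant except in K27M cells, and was called lower than control in K27M and EED-null cells. *Dcn*, which encodes a matrix proteoglycan, had 372 ± 11.1 (SD, n = 2) in control, 3224 ± 44.4 in K27M and 71.5 ± 3.06 in EED-null cells. It was called higher than control in K27M cells (log2 difference 3.11) and lower in EED-null cells (-2.36). The sum thus hides opposite moves of the 2 genes in K27M cells. Of 6 epithelial markers 2 were listed, *Epcam* and *Krt14*, with a sum of 6.16 and 3.69 in the control libraries, 59.2 and 36.5 with EZHIP, 109 and 141 with K27M, and 43.0 and 24.4 without EED. *Epcam* was the more abundant except in EZHIP cells, and *Krt14* was at 0 in both control libraries. *Kdr*, the listed 1 of 4 endothelial markers, had 9.42 ± 0.252 in control cells, 51.7 ± 0.551 with EZHIP, 189 ± 46.2 with K27M and 10.9 ± 0.305 without EED. *Sox2*, the listed 1 of 5 neural markers, was at 0 in control and K27M cells, at 151 ± 20.4 in EZHIP and at 258 ± 17.6 in EED-null cells. None of the markers of blood (5), muscle (4), adipocytes (3) and pluripotent cells (3) was listed. The part of these differences in the *Hox* levels was not tested.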

How the data were processed

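RNA sequencing signal was used as deposited: the authors estimated reads per gene with RSEM 1.2.4 on the mm9 transcriptome and divided them by 1 size factor per library. Whether the added RNA entered the size factors is not stated. With limma 3.58.1 (R 4.3.3), all 8 libraries were fitted on log2(value + 1). The p-values were adjusted over all 875 genes by the Benjamini-Hochberg method. The procedure was also run on simulated data, from which no result is drawn here. Exact intervals for ratios came from summed reads (scipy 1.17.1). The annotation gave 1 locus for 850 genes, several for 6 and none for 19. Named genes were up to 2 of the most alike to each *Hox* gene, listed neighbours within 1 Mb, markers, and up to 4 genes per list with the largest difference between EED-null and control. Members and lists were chosen with earlier results of these data known. Alternatives covered the pseudocount, a filter, scaling, the fit, the call rule, each library left out, transcript length, the neighbour window and the split of paralogues. Homeodomains were not compared.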

Additional observations from a re-analysis of the deposited data

How the results depend on the processing

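Over 6 comparisons, 8 *Hox* genes and 16 alternatives, 718 of 768 differences stayed on their side of the threshold, 38 no longer passed it and 12 newly passed it. The 718 include 128 of 128 in EZHIP against control, on which the table was selected. No called difference changed sign, but 1 uncalled difference did: *Hoxc8* in K27M against EED-null went from -0.07 to 0.08 without K27M replicate 1. The number of *Hox* genes called in K27M against EZHIP went from 2 to 4 with the adjusted p alone. In EED-null against EZHIP it went from 5 to 3 with a pseudocount of 0.1, and ranged from 3 to 4 with each of the 8 libraries left out in turn. The cause was not tested. With the replicate block, *Hox* genes called fell from 7 to 6 in K27M against control, from 7 to 6 in EED-null against control and from 5 to 4 in EED-null against EZHIP, where *Hoxc8* lost its call (adjusted p = 0.0517, 0.0594 and 0.0723). The other counts with the replicate block stayed at 8 in EZHIP against control, 2 in K27M against EZHIP and 4 in K27M against EED-null, and the replicate numbers share only a label, with correlations from -0.09 to 0.11. All listed genes called lower in EED-null against EZHIP went from 173 to 275 with the adjusted p alone. Listed neighbours with a single annotated locus went from 2 within 1 Mb to 0 within 500 kb. With paralogue groups 10 to 13 as posterior, 5 of 5 were called higher against control in K27M and in EED-null cells. The 3 genes of groups 1 to 9 then moved in different directions, with 1 called higher and 2 lower in EZHIP, 2 lower and 1 not called in K27M, and 1 higher, 1 lower and 1 not called in EED-null. Of all listed genes, 41.4% and 39.9% were called higher and 20.0% and 25.1% lower in K27M and EED-null cells. Median transcript length raised *Hoxb9* and *Hoxa11* per kilobase in all 4 groups, by more than 1 SD for *Hoxb9* in each group and for *Hoxa11* in K27M and EED-null cells. Depth limits the genes with few control reads.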

Other observations

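Of 38 genes that mark limb and trunk position, 12 were listed, and 6 of them are also homeobox genes. Against control, K27M cells had 4 called higher and 1 called lower, while EED-null cells had 8 called higher. Over all listed genes the shares were 41.4%, 20.0% and 39.9%. Of the 12, 10 were higher in EZHIP, a class in which 62.4% were called higher in K27M and 68.3% in EED-null cells. Between K27M and EED-null cells, 7 were called lower and 1 called higher in K27M, beside 26.6% and 27.8% of all listed genes. *Sall3* had a mean of 0 in control cells, 30.6 with EZHIP, 0.437 with K27M and 236 without EED. *Msx1*, a homeobox gene of the limb bud, had 2.42, 305, 32.9 and 420.4 in the same order.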
